A study of Mus musculus with 2 samples.

Results

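The laminin and nidogen genes studied here comprised 10 genes, the alpha chain genes Lama1, Lama2, Lama3, Lama4 and Lama5, the beta chain genes Lamb1 and Lamb2, the gamma chain gene Lamc1, and the nidogen genes Nid1 and Nid2. Their members were the 20 probe sets for which the platform annotation names 1 of these genes and no other, out of 34945 probe sets that name a single gene and 45101 on the array. RNA was measured in wild-type C57Bl6 mouse embryos at E12.5. One group was liver mesothelial cells, the covering epithelium of the organ, sorted by FACS with antibodies to podoplanin (Pdpn) from livers digested with trypsin-EDTA. The other was liver cells of the same strain, genotype and age, for which the labels name no sort. Each group was 1 Affymetrix GeneChip Mouse Genome array without a replicate, so no difference was tested and all values describe these 2 arrays.

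Laminins are trimers of an alpha, a beta and a gamma chain that assemble in the endoplasmic reticulum and polymerise into a sheet beneath epithelia, around muscle and around vessels. The alpha chain carries most of the sites for the cell surface receptors, integrins and dystroglycan, and so sets much of the difference between laminins. Nidogens bind the laminin gamma chain and collagen IV and link both networks. In the developing liver, mesothelium rests on a basement membrane, whereas the sinusoids lack a continuous one.

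Probe set values are intensities on a linear scale, and a difference is the log2 value of the mesothelial array less that of the liver array. The median intensity of all probe sets was 65.8 on the mesothelial array and 42.3 on the liver array, and a probe set counted as above the floor where its brighter value reached the median of that array. A probe set can thus pass through the mesothelial array alone, so counts are read over all measured members. Background was read from 27 probe sets for bacterial transcripts, the highest of which was 16.2 on the mesothelial array and 10.5 on the liver array. The median difference over all 34945 probe sets was 0.58, so most genes read brighter on the mesothelial array, and centring each array on its median lowered every difference by 0.64. Where a gene has several probe sets above the floor, their differences scattered with an SD of 0.70, pooled over 5220 genes. This SD, like the values derived from it below, leaves out dimmer probe sets and holds no variation between embryos, sorts or arrays. The beta-actin control read 2.30 times brighter at its 3′ than at its 5′ end on the mesothelial array and 1.49 times on the liver array. For Gapdh these ratios were 2.15 on the mesothelial array and 1.95 on the liver array, and the part of this difference in the results below was not tested. Pdpn, on which the cells were sorted, was 38.8-fold brighter on the mesothelial array.

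Most of the laminin and nidogen genes were brighter in mesothelial cells. Of the 20 probe sets, 12 were above the floor and past a 2-fold threshold on the mesothelial side, against 24.7% of all probe sets. None of the 20 did so on the liver side, against 2.40% of all probe sets. After median centring the counts were again 12 and 0, against 12.6% and 6.61% of all probe sets. Regardless of size, 19 of the 20 were brighter in mesothelial cells, against 75.4% of all probe sets. No floor applies to this count: of the 20, 7 were below the floor, and 1 of these was at control level on both arrays. The count is as deposited, and the sign of a small difference depends on the scaling. By gene, represented by the probe set brightest on average over both arrays on the log2 scale, 8 of 10 genes were at least 2-fold brighter in mesothelial cells, against 30.0% of all 18193 genes, and 8 after median centring, against 15.8%. No gene was so in liver cells, against 2.53% of all genes as deposited and 6.11% after centring. The median difference was 2.12 over the 10 genes and 0.66 over all genes. Both exceptions were alpha chain genes, Lama2, which differed by less than 2-fold, and Lama3, which lay below the floor. Because both samples hold several kinds of cell, more cells of a type and more RNA per cell cannot be told apart.

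**Figure D1:**
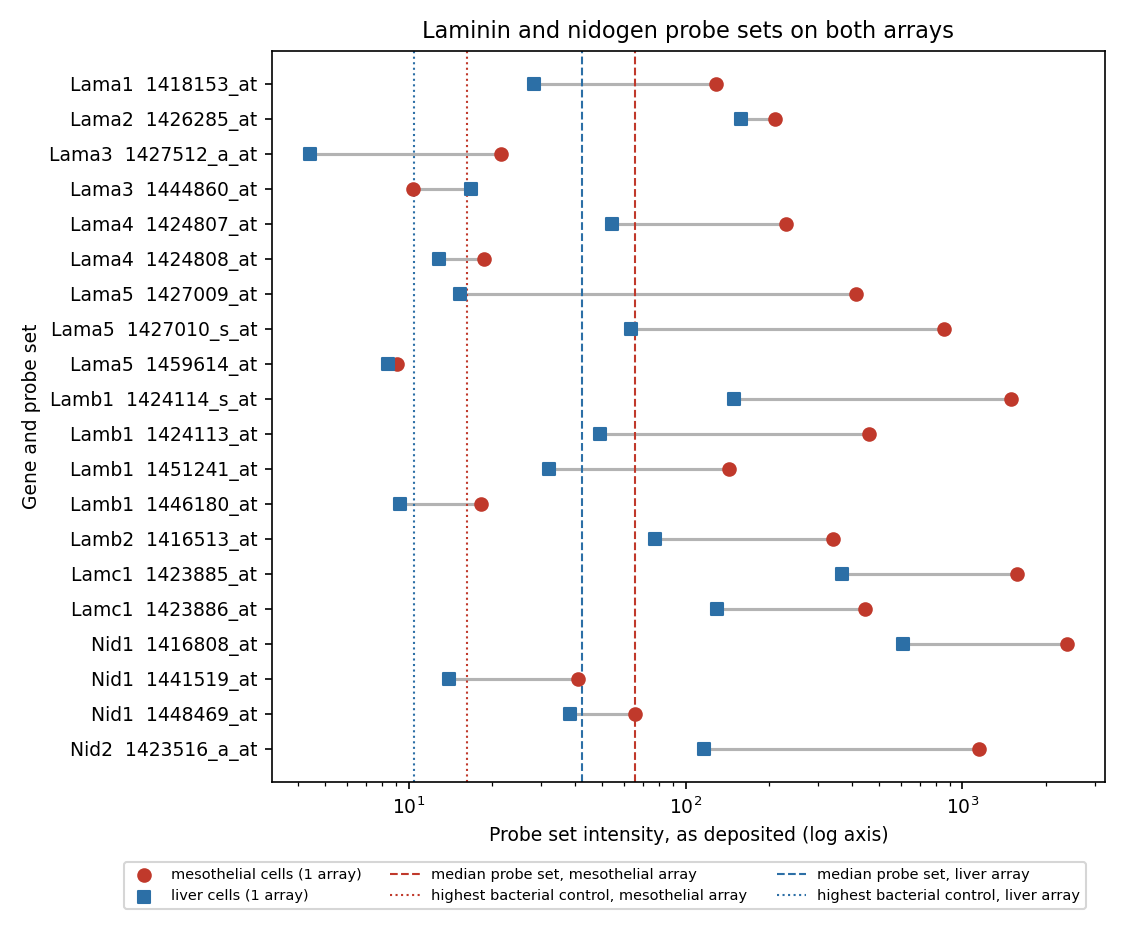
Intensity of each of the 20 laminin and nidogen probe sets (log axis) in mesothelial cells (circles) and liver cells (squares), 1 array each, with the median probe set (dashed) and the highest bacterial control (dotted) of each array. In 19 of the 20 probe sets the mesothelial value is the higher, the exception being Lama3 probe set 1444860_at, at 10.4 in mesothelial cells, against 16.8 in liver cells.

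**Figure D2:**
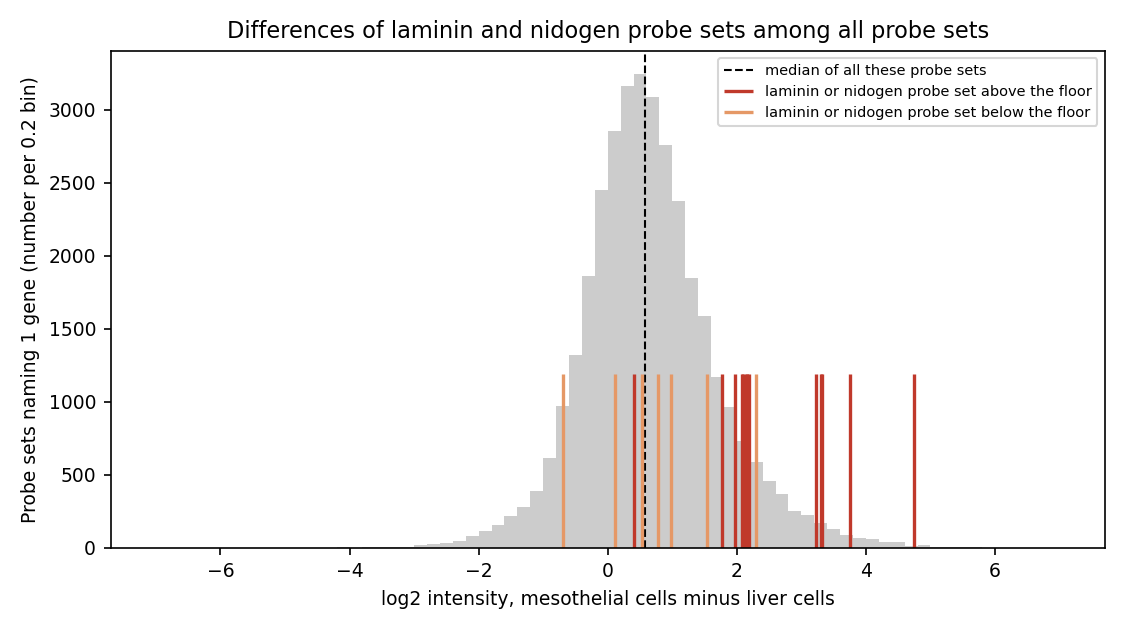
Number of probe sets naming 1 gene by log2 difference, mesothelial cells minus liver cells (grey), with the 13 laminin and nidogen probe sets above the floor (red lines) and the 7 below it (orange lines). Above the floor the laminin and nidogen differences run from 0.41 to 4.75, and all but the lowest lie to the right of the median of all probe sets, 0.58 (dashed).

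Among the alpha chains, Lama5 differed most. Lama5 encodes the alpha chain common in epithelial basement membranes. Probe set 1427009_at read 411.5 in mesothelial cells, against 15.3 in liver cells, 26.9-fold higher, a difference of 4.75 that 0.129% of all probe sets exceeded. Its liver value was under the array median of 42.3 and not far over the highest bacterial control, 10.5, so this fold is uncertain. Probe set 1427010_s_at, of a kind that can match several transcripts, read 857.3 in mesothelial cells, against 63.5 in liver cells, 13.5-fold higher. The third, 1459614_at, read 9.1 in mesothelial cells, against 8.4 in liver cells, at control level on both arrays, and gives no fold. Both measurable Lama5 probe sets thus placed the gene well to the mesothelial side, with an SD of 0.70 between them.

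Lama1 encodes the alpha chain of early embryonic and some epithelial basement membranes. Its single probe set, 1418153_at, read 129.1 in mesothelial cells, against 28.3 in liver cells, 4.56-fold higher. The liver value was under the array median of 42.3, and no second probe set bears on this fold. Lama4, whose chain is known from vessels and mesenchyme, read 230.9 in mesothelial cells, against 54.5 in liver cells on 1424807_at, 4.24-fold higher. Its second probe set, 1424808_at, was below the floor at 18.7 in mesothelial cells, against 12.9 in liver cells, a difference of 0.54. The Lama4 call therefore rests on 1 probe set, and the median over both was 1.31.

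Lama2 differed little between the arrays. It encodes the alpha chain of the basement membrane around muscle fibres and Schwann cells. Probe set 1426285_at read 209.8 in mesothelial cells, against 158.4 in liver cells, a difference of 0.41, and 57.9% of all probe sets had a larger one. Relative to the array medians the sign turned, to -0.23, and no scaling placed it at 2-fold in either direction. The difference of Lama5 exceeded that of Lama2 by 3.35, where a difference between 2 probe sets of one gene has an SD of 0.99. For Lama1 and Lama4 the excess over Lama2 was 1.78 and 1.68.

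Lama3, the alpha chain gene of skin and other epithelia anchored by hemidesmosomes, was dim on both arrays. Probe set 1427512_a_at read 21.6 in mesothelial cells, against 4.4 in liver cells, where the liver value was at control level, so it was at least 2.06-fold higher in mesothelial cells. Probe set 1444860_at read 10.4 in mesothelial cells, at control level, and 16.8 in liver cells. These point opposite ways and neither reached the floor, so no direction is given for Lama3.

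Lamb1 encodes the beta chain found in most embryonic laminins. Probe set 1424114_s_at read 1493 in mesothelial cells, against 149.4 in liver cells, a difference of 3.32. On 1424113_at the values were 460.3 in mesothelial cells, against 49.1 in liver cells, 9.37-fold higher, and on 1451241_at they were 143.6 in mesothelial cells, against 32.1 in liver cells, 4.47-fold higher. That last liver value was under the array median of 42.3. The dimmest, 1446180_at, lay below the floor, with 18.3 in mesothelial cells, against 9.3 in liver cells, at least 1.74-fold higher. The 3 above the floor agreed in direction, with an SD of 0.64 between them. Lamb2, which encodes the beta chain of the neuromuscular junction and the kidney glomerulus, has 1 probe set, 1416513_at, which read 341.6 in mesothelial cells, against 77.5 in liver cells, 4.41-fold higher. The Lamb1 differences above the floor ran from 2.16 to 3.32 and that of Lamb2 was 2.14, just under the lowest of them. Taken by gene the Lamb1 difference was larger by 1.18, beside an SD of 0.99 for a difference between 2 probe sets of one gene.

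Lamc1 encodes the gamma chain shared by most laminins, and so can pair with any of the alpha chains above. Its 2 probe sets agreed closely, with an SD of 0.24. On 1423885_at the gene read 1572 in mesothelial cells, against 366.8 in liver cells, 4.29-fold higher, and on 1423886_at 443.3 in mesothelial cells, against 130.3 in liver cells, 3.40-fold higher. The Lamc1 differences, 1.77 and 2.10, were below both measurable Lama5 differences and above that of Lama2. They were also below the lowest of the 3 Lamb1 differences above the floor, but only just, at 2.10 against 2.16. A difference between 2 probe sets of one gene has an SD of 0.99, so Lamc1 and that Lamb1 probe set are not set apart. The dim Lamb1 probe set 1446180_at, with its liver value at control level, lay under both Lamc1 values, at 0.98. In the liver cells Lamc1 was well over background, at more than the array median on both probe sets.

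Both nidogen genes were brighter in mesothelial cells. Nid2, on its single probe set 1423516_a_at, read 1143 in mesothelial cells, against 116.3 in liver cells, 9.83-fold higher. Nid1 read 2382 in mesothelial cells, against 608.0 in liver cells on 1416808_at, 3.92-fold higher. Its other probe sets were dimmer and below the floor. Probe set 1441519_at read 40.8 in mesothelial cells, against 14.0 in liver cells, a difference of 1.54, and 1448469_at read 65.5 in mesothelial cells, just under the array median, and 38.3 in liver cells, a difference of 0.77. The Nid2 difference exceeded the largest of the Nid1 differences by 1.33, where a difference between 2 probe sets of one gene has an SD of 0.99.

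Ordered by gene, the differences were largest for Lama5, Lamb1 and Nid2, at 3.75, 3.32 and 3.30. A middle group of Lama1, Lamb2, Lamc1, Lama4 and Nid1 lay between 2.19 and 1.97, closer together than the spread between probe sets of one gene. Lama2 and Lama3 were last. Lama5, Lamb1 and Nid2 held the first 3 places under each of the 5 other scalings and when a gene was given the median of its probe sets. Leaving out those whose names end in _x_at, _s_at or _a_at removed Nid2, and Lama5 and Lamb1 stayed first.

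**Figure D3:**
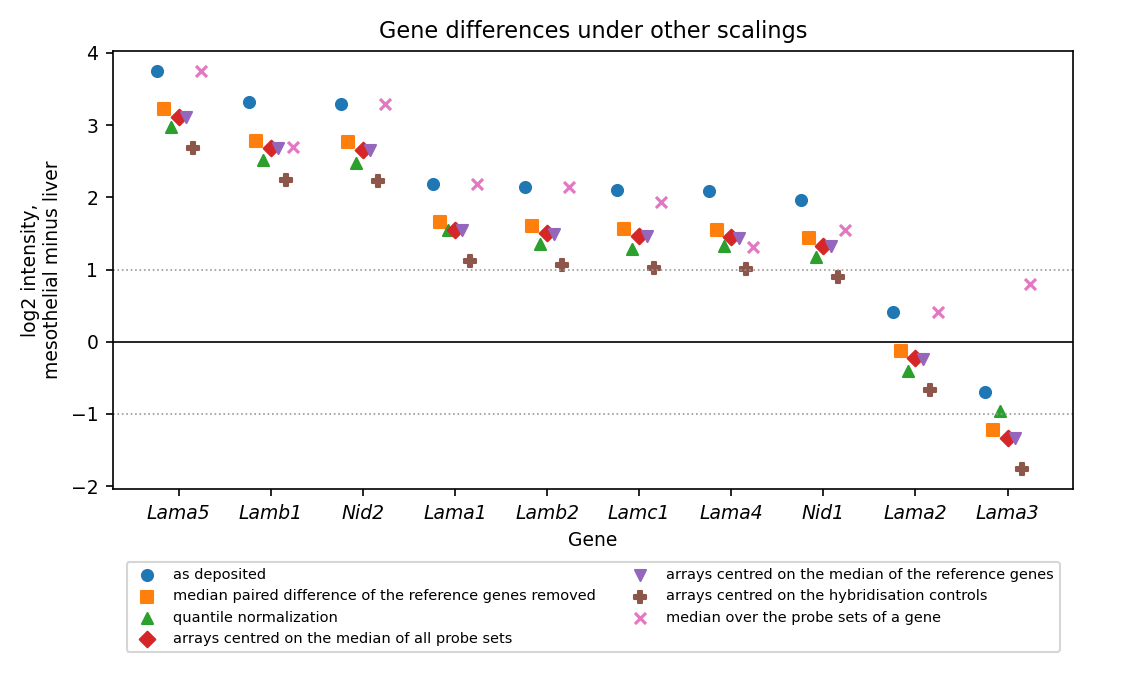
Log2 difference, mesothelial minus liver, of each laminin and nidogen gene as deposited, under 5 other scalings between the arrays, and with the median over the gene's probe sets. Lama5, Lamb1 and Nid2 stay above 2 in each setting shown, while Lama2 is 0.41 as deposited and crosses 0 under the 5 other scalings (dotted lines mark 2-fold).

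Promoter sequences from RefSeq (GRCm38.p6) were matched by symbol for 5 of the 10 genes, Lama2, Lama5, Lamb1, Lamb2 and Nid1, in windows from 250 bases before to 50 after the annotated start. Windows of 3 genes are printed because these genes mark the ends of the range, Lama5 and Lamb1 with the largest differences and Lama2 with the smallest above the floor. They lie at chr2:180225810-180226109 on the minus strand for Lama5, chr12:31265043-31265342 on the plus strand for Lamb1, and chr10:27616893-27617192 on the minus strand for Lama2. Each is written 5′ to 3′ on the strand of the gene, and capitals mark the GC box GGGCGG on either strand, the element bound by Sp and Klf factors.
Lama5: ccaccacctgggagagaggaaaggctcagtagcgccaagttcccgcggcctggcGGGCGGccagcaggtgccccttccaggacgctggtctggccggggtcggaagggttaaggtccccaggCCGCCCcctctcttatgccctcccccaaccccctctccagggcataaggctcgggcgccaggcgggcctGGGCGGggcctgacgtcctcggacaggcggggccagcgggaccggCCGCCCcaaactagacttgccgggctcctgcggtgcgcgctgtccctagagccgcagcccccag
Lamb1: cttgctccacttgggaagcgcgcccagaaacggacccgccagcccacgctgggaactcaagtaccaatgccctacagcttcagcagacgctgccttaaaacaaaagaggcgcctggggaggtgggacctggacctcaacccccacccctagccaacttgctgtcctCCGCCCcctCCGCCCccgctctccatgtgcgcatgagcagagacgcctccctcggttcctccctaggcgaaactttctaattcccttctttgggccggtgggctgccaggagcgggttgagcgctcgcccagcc
Lama2: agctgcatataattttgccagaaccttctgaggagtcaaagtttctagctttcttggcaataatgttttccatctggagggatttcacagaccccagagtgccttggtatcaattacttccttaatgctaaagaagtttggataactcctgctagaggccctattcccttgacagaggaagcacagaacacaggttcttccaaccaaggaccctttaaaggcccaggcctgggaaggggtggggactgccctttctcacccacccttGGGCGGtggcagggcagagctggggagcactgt
The GC box occurred 4 times in the Lama5 window, 2 times in that of Lamb1 and 1 time in those of Lama2 and Nid1, and these letters were not in the Lamb2 window. Of all 32851 windows in the table, 35.7% held it. CG dinucleotides numbered 24 for Lama5, 18 for Lamb1, 20 for Nid1, 4 for Lamb2 and 1 for Lama2, against a median of 7. The core GCGNGGGCG, bound by WT1 and EGR proteins, was searched on both strands and occurred 1 time, in the Lamb1 window, overlapping a GC box, and in 5.55% of all windows. CAGGTG, an E-box bound by Snail and Zeb factors, occurred 2 times in the Lama5 window and in 20.2% of all windows. CCAAT occurred 1 time each in the Lamb1 and Nid1 windows and in 37.4% of all. TATAAA and the AP-1 site TGANTCA, held by 13.6% and 7.81% of all windows, were in none of the 5. A match is a stretch of letters and not a shown binding site.

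The other laminin chain genes measured, Lamb3 and Lamc3, were below the floor. Lamb3, the beta chain gene that pairs with Lama3 in skin, read 21.0 in mesothelial cells, against 7.2 in liver cells, at control level, and was at least 2.00-fold higher. Lamc3 read 45.1 in mesothelial cells, against 17.8 in liver cells.

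The genes listed as laminin receptors had a smaller median difference than the laminin and nidogen genes. Of 12 measured, 7 were called at least 2-fold brighter in mesothelial cells, or 4 once centred, where the shares of all genes were 30.0% and 15.8%. The list also takes in the sarcoglycan gene Sgce and the syndecan genes Sdc1 and Sdc4, which were called as deposited and not once centred. The median was 1.24. Itga3, the integrin subunit that pairs with beta 1 to bind Lama5-type laminins, read 587.6 in mesothelial cells, against 70.7 in liver cells, 8.31-fold higher. Bcam, a receptor for the Lama5 chain, read 154.3 in mesothelial cells, against 29.3 in liver cells, 5.27-fold higher. Dag1, which encodes dystroglycan, read 1659 in mesothelial cells, against 437.9 in liver cells, 3.79-fold higher, though the median over its 4 probe sets was 1.15. Itga1, a subunit of a collagen and laminin receptor, differed least of those above the floor, by 0.51.

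Other basement membrane components were called brighter in mesothelial cells by at least 2-fold for 17 of 23 measured, and for 16 once centred. The same shares of all genes were 30.0% and 15.8%. Once centred, 1 of the 23 was so in liver cells, against 6.11% of all genes. The median over the 23 measured was 2.36, and it was the same with low values set to control level. Npnt, a ligand of integrin alpha 8, read 1537 in mesothelial cells, against 23.8 in liver cells, 64.6-fold higher, though its 5 probe sets scattered with an SD of 1.75. Col4a6, a collagen IV chain, read 388.1 in mesothelial cells, against 8.6 in liver cells, at control level, and was at least 37.0-fold higher. Smoc2, a secreted calcium-binding protein, was 17.8-fold higher, and its 2 probe sets scattered with an SD of 1.71. Tinagl1, a matrix protein related to tubulointerstitial nephritis antigen, had the lowest difference of those above the floor, at 132.4 in mesothelial cells, against 213.5 in liver cells.

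Genes for folding, secretion and glycosylation of matrix and receptor proteins were at least 2-fold brighter in mesothelial cells for 7 of 12 measured, against 30.0% of all genes. After median centring it was 2 of 12, close to the 15.8% of all genes. Their median, 1.05, turned sign when the arrays were centred on the hybridisation controls. Serpinh1, a chaperone of collagens, was 6.24-fold higher, and Pomgnt1, an enzyme that builds the laminin-binding sugar of dystroglycan, 3.89-fold higher. Mia3, which loads large matrix proteins into transport vesicles, differed by 1.46 with a median of 0.63 over 4 probe sets. Pomt2, another enzyme of the dystroglycan sugar, differed least, by 0.32. Among 14 measured proteases that act on basement membranes, 6 were called on the mesothelial side and 1 on the liver side, or 4 and 1 once centred. Of all genes, 30.0% and 2.53% were so called, or 15.8% and 6.11% once centred. The median of 0.78 over 14 measured also turned sign on the hybridisation controls. Mmp2, which cleaves collagen IV, was 22.3-fold higher, Bmp1 8.22-fold and the plasminogen activator gene Plat 7.52-fold, and the median over the 3 Bmp1 probe sets was 1.27. Mmp3, a matrix protease of broad range, read 24.9 in mesothelial cells, against 107.6 in liver cells.

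**Figure D4:**
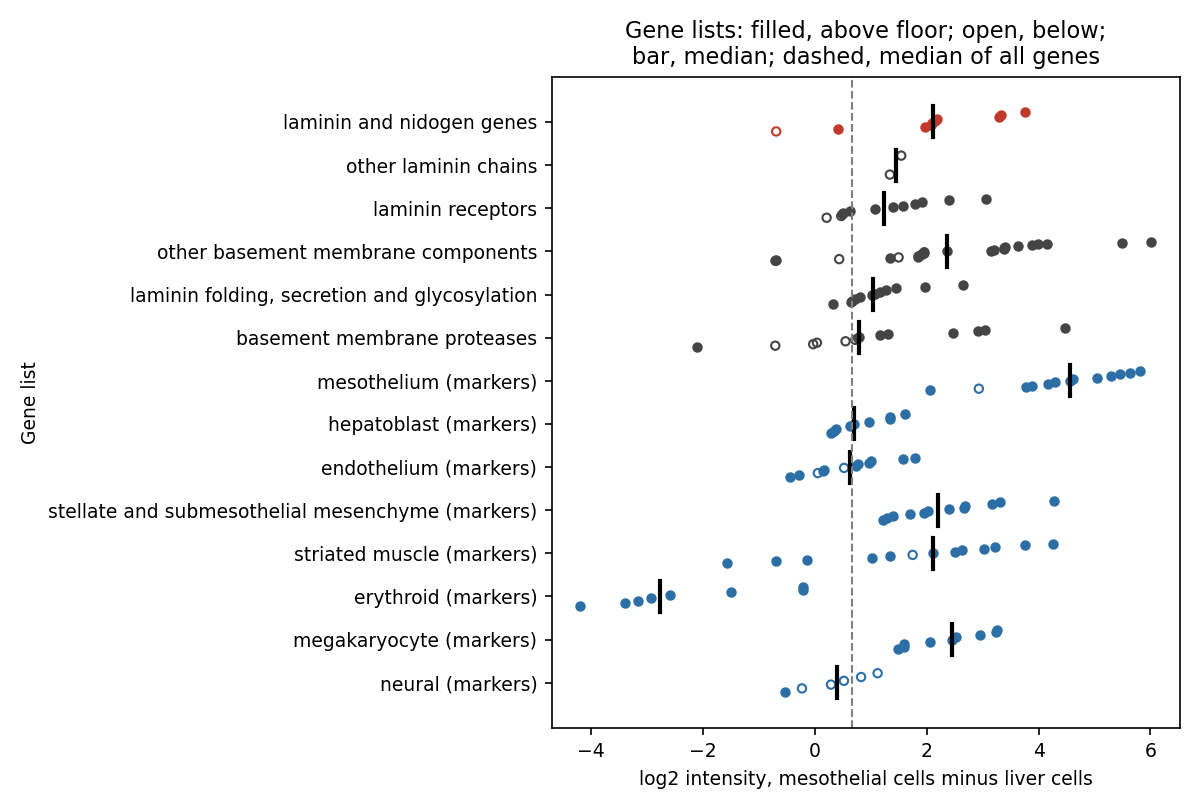
Log2 difference, mesothelial cells minus liver cells, of each gene (points) in the laminin and nidogen list, 5 related lists and 8 lists of cell type markers, filled above the floor and open below it, with list medians (bars) and the median of all 18193 genes, 0.66 (dashed). The laminin and nidogen median of 2.12 lies near those of stellate, muscle and megakaryocyte markers and under that of mesothelial markers.

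Markers of several kinds of cell differed in intensity between the arrays alongside these genes. Of all genes, 30.0% were called at least 2-fold brighter in mesothelial cells and 2.53% in liver cells. Once centred, these shares were 15.8% and 6.11%, and each marker list below is read beside them. Of 13 mesothelial markers measured, 12 were called at least 2-fold brighter in mesothelial cells, and 12 once centred. Their median was 4.56, and their intensities summed to 27423 in mesothelial cells, against 3750 in liver cells, where Msln, Muc16 and Rspo1 were at control level. Alcam alone gave 13424.5 of the first sum and 3207 of the second, and had the smallest difference of the list, 2.07. Stellate and submesothelial markers passed 2-fold for 12 of 12, or 9 once centred, with a median of 2.21 and sums of 8642 in mesothelial cells, against 1667 in liver cells. Taken as the median over probe sets, Acta2 fell to -0.08, Lrat to 0.51, Reln to 0.62 and Ngfr to 0.82, all under 2-fold. The other genes of this list stayed past 2-fold. Striated muscle markers passed 2-fold for 9 of 13 measured and 1, Acta1, picked out after its value was seen, was so in liver cells. Once centred, these counts were 7 and 2. Their median was 2.12, with sums of 4767 in mesothelial cells, against 1306 in liver cells. Taken as the median over probe sets, Ttn fell to 0.78 and Myl4 to 0.60, both under 2-fold. The other muscle genes called on the mesothelial side stayed past 2-fold. Megakaryocyte markers passed 2-fold for 9 of 9, or 6 once centred, with a median of 2.45 and sums of 30404 in mesothelial cells, against 8206 in liver cells. In these 4 lists, as in the endothelial, hepatoblast and erythroid lists below, none of the genes was at control level on the mesothelial array. The part of any of these kinds of cell in the laminin and nidogen differences was not tested.

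Endothelial markers were closer to the typical gene, where 3 of 12 measured were called on the mesothelial side and 0 on the liver side, or 1 each once centred. Of all genes, 30.0% and 2.53% were so called, or 15.8% and 6.11% once centred. The median of the endothelial markers was 0.63, beside 0.66 for all genes. Hepatoblast markers passed 2-fold on the mesothelial side for 3 of 9, near the 30.0% of all genes, or none once centred. Their median was 0.70, with sums of 72464 in mesothelial cells, against 48083 in liver cells, so hepatocyte-lineage RNA was bright on both arrays. Erythroid markers were at least 2-fold brighter in liver cells for 6 of 8, against 2.53% of all genes, with a median of -2.76. Of 6 neural markers measured, 1, Elavl4, was above the floor, at 31.7 in mesothelial cells, against 46.0 in liver cells. Once centred this difference passed 2-fold on the liver side, as it did for 6.11% of all genes.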

How the data were processed

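RNA of 1 mesothelial and 1 liver sample (20 ng each, amplified and labelled with NuGEN Ovation systems, per the labels' protocols) was hybridised to 1 array each. The deposited values are probe set intensities, judged linear from the values. RMA and Partek appear, without version or order, per the submitters' processing notes, and further steps are not given in the sources used here. Values were put on the log2 scale without rescaling (Python 3.11.15, numpy 2.4.6, pandas 2.3.3). The number of arrays limits the precision. One free-text label speaks of a far earlier embryonic age, which was not used.

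Gene names came from the platform annotation, in which 34945 probe sets had 1 symbol, 932 several, and 9160 other than the 64 controls had none. Each gene was represented by its probe set with the greatest mean over both arrays on the log2 scale. Called means at least 2-fold with the brighter value at or above its array median. Where a value was at or below the highest bacterial control of its array, the fold was taken against that control. The functions were tested on simulated data.

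The members and lists were chosen with earlier results of these data known. The genes named were all members, in each related list the 3 with the largest and the 1 with the lowest difference above the floor, and Pdpn. Lamb3 and Lamc3, the only other laminin chain genes measured, are named although both were below the floor. Alternatives were other scalings, floors, thresholds and probe set choices. The rule also allows 2 marker genes per list, which were not all printed. Msln, Muc16 and Rspo1 are named as at control level and Acta1 and Elavl4 as single exceptions, of which Msln, Rspo1 and Acta1 fall outside the rule and were chosen after their values were seen. Alcam, Acta2, Lrat, Reln, Ngfr, Ttn and Myl4 also fall outside it and were named for their values. The same holds for Sgce, Sdc1 and Sdc4 of the receptor list.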

Additional observations from a re-analysis of the deposited data

How the results depend on the processing

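Each comparison rests on 1 array a group, so no replicate could be left out. No paired analysis was possible because the labels give 1 sample a group and no shared replicate numbers. The counts at least 2-fold brighter in mesothelial cells ranged from 9 to 14 probe sets and from 6 to 8 genes over the alternatives. The counts in liver cells were 0 throughout. Leaving out probe sets ending in _x_at, _s_at or _a_at gave 9 of 16 probe sets and 7 of 9 genes, and the other counts are of 20 and 10. Shares of all probe sets and genes were read only as deposited and after median centring, so the range as a whole has no such share beside it. A value is called moved here where it shifted by more than 0.70, the SD between probe sets of one gene above the floor. Centring on the hybridisation controls lowered every difference by 1.08 and gave medians of 1.02 over member probe sets, 1.04 over member genes, 1.29 for other basement membrane components, 0.37 for other laminin chains, 0.16 for laminin receptors, -0.028 for folding, secretion and glycosylation genes and -0.29 for proteases, the last 2 with the sign turned. Quantile normalization gave 1.31 over member probe sets, 1.34 over member genes, 0.47 for receptors and 0.34 for folding genes. Lama2 turned to -0.67 on the hybridisation controls, -0.40 by quantile normalization, -0.23 on array medians, -0.24 on reference gene medians and -0.13 with the median paired difference of 10 reference genes removed. Lama3 turned to 0.80 with the median over its probe sets, which point opposite ways. The other scalings subtract 1 constant from every difference, which by itself turns the sign of a smaller value, while for quantile normalization the cause was not tested.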
